A study of Mus musculus with 10 samples.

Results

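Expression of 10 genes that mature astrocytes use to serve neighbouring neurons was followed in the brains of mice with a skin inflammation. They are Slc1a2, Slc1a3, Ntsr2, Etnppl, Aldoc, Gja1, Gjb6, Kcnj10, Glul and Aqp4, picked by name with earlier results of these data known. Their rows were found by gene symbol in the table that pairs probesets with genes. All 10 members had a row, out of 19938 genes with a probeset of 1 symbol. Glul had 2 rows and each of the others 1, which made 11 rows out of the 23410 probesets with a symbol, and 0 of the 11 were shared with another gene. The study applied cream to the shaved backs of female wild-type C57BL/6 mice, aged 6 to 8 weeks, and measured RNA from their perfused whole brains on GeneChip arrays, with 1 array per mouse. The 5 Aldara-treated mice received 80 mg of Aldara cream, which holds 5% imiquimod, a ligand of the RNA sensor TLR7, every 24 h for 5 applications. The 5 control mice received the same amount of aqueous control cream on the same schedule, and all brains were taken 24 h after the last application. The Aldara vehicle differs from aqueous cream in other ingredients too, so the effects of imiquimod and of the vehicle cannot be told apart here.

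Astrocytes take up the glutamate that neurons release, turn it into glutamine and hand it back, and they keep the potassium and water around synapses in balance. They are joined into networks by gap junctions, and their endfeet, which wrap blood vessels, hold dense arrays of water and potassium channels. In inflamed or injured brain, astrocytes are known to switch on structural and secreted proteins such as GFAP while parts of this housekeeping programme can decline.

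The deposited values are log2 expression values made by the authors with RMA, a method that corrects probe signals for background, gives all arrays the same overall distribution and condenses the probes of a probeset into 1 value. A difference is the mean of the Aldara-treated brains minus the mean of the control brains on this log2 scale. A call is an adjusted p under 0.05 from limma, with Benjamini-Hochberg adjustment over all 23410 probesets. The median tested probeset lay at 8.16 to 8.19 on the arrays of Aldara-treated brains and at 8.10 to 8.14 on those of control brains, and the median difference over all probesets was -0.04. Markers of neurons, oligodendrocytes and astrocytes, which a whole brain should hold, had list means of 11.95 to 11.99, 10.16 to 10.23 and 10.17 to 10.24 in control brains. The table does not say which probesets lay above background. In whole-brain RNA, fewer cells of a type and less RNA per cell cannot be told apart.

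Of the 10 genes, 7 fell, 2 rose and Gjb6 did not pass the test in the brains of Aldara-treated mice. Across the array 21.0% of probesets were called lower, 12.4% higher and 33.4% in either direction. The median difference of the 10 genes was -0.24, or a change of -15.1%, against -0.05 over all 19938 genes. Ntsr2, Etnppl and Slc1a2 changed most, with decreases of rank 5, 10 and 14 among all 23410 probesets. These 3 genes were both called lower and at least 20% lower, as were 0.906% of all probesets. Aqp4 and Kcnj10, the channels for water and potassium, went the other way. For 7 genes all Aldara-treated brains lay below all control brains, which held for 15.3% of all probesets. For 2 genes they lay above, which held for 10.5%. The 10 genes were chosen with earlier results of these data known, so these shares are given for scale and do not test the list.

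**Figure D1:**
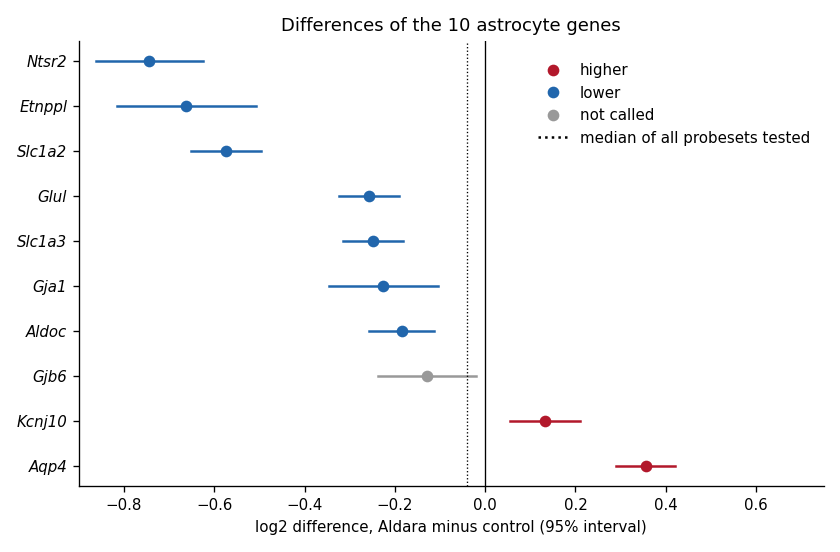
Log2 difference, Aldara-treated minus control brains (x axis), with its 95% interval from limma, for each of the 10 astrocyte genes (y axis), 5 brains per group. Blue points were called lower, red points higher, and the grey point, Gjb6, was not called. The dotted line is the median of all probesets tested, at -0.04. Ntsr2, Etnppl and Slc1a2 lie farthest to the left, at -0.74, -0.66 and -0.57, and Aqp4 farthest to the right, at 0.36.

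Ntsr2 encodes a neurotensin receptor that in the brain is made mainly by astrocytes. Its log2 values were 9.67, 9.81, 9.89, 9.97 and 9.90 in Aldara-treated brains, against 10.58, 10.50, 10.60, 10.56 and 10.70 in control brains. The groups stood 0.536 apart at their nearest points, the widest gap of the 10 genes. The mean was 9.85 ± 0.11 in Aldara-treated brains and 10.59 ± 0.073 in control brains (SD, n = 5 each), a log2 difference of -0.74 (standard error 0.054, adjusted p = 8.7e-07 from limma), so that expression fell by 40.3% (95% interval -45.0% to -35.1%). The other measured parts of the neurotensin system moved less. Ntsr1, the neuronal receptor, had a log2 difference of -0.21 (standard error 0.062) and Sort1, a sorting receptor that binds neurotensin, one of -0.18 (standard error 0.026), and both were called lower. Nts, the peptide itself, had a difference of -0.07 (adjusted p = 0.23 from limma). The groups did not overlap for Sort1 (adjusted p = 2.0e-04 from limma) but did for Ntsr1 (adjusted p = 0.020 from limma). Of the 4 genes of the system, 2 (50%) were lower and 0 higher, against 22.4% and 11.8% of all 19938 genes. The count of lower genes ran from 1 to 3 when 1 array was left out. It was 1 without control replicate 1, Aldara replicate 1 or Aldara replicate 4. When every array was shifted to a common mean of neuron markers, neither Ntsr1 nor Sort1 was called lower, and 1 gene of the system was called higher. After that shift 712 of all 23410 probesets were called lower and 10306 higher.

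The promoters of 4 of the 10 genes are shown because they belong to the largest decreases (Ntsr2 and Etnppl), to a smaller decrease (Slc1a3) and to an increase (Kcnj10). They are RefSeq windows in GRCm38.p6, from 250 bases before to 50 bases after the start, written from 5′ to 3′ on the strand of the gene. Capitals mark matches to the core of the STAT gamma-activated site, TTCNNNGAA, a palindrome and so alike on both strands.
Ntsr2, chr12:16653220-16653519, plus strand: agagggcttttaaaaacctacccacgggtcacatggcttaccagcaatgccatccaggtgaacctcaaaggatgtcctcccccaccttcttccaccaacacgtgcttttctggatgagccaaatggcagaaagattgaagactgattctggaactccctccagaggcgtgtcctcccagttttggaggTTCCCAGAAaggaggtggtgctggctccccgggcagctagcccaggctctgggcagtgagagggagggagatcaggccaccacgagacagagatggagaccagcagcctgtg
Etnppl, chr3:130617198-130617497, plus strand: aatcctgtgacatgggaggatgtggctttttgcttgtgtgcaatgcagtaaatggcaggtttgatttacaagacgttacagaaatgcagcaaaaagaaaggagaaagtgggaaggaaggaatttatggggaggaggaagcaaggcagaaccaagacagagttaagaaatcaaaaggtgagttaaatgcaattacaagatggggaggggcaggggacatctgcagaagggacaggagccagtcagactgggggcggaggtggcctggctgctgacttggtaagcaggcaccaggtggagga
Slc1a3, chr15:8710758-8711057, minus strand: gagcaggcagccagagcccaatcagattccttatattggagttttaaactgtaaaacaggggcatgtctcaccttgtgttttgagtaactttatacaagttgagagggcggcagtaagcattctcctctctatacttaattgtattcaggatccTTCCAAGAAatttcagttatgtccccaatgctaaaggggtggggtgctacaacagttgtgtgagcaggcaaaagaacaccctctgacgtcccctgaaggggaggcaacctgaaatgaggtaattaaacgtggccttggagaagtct
Kcnj10, chr1:172340960-172341259, plus strand: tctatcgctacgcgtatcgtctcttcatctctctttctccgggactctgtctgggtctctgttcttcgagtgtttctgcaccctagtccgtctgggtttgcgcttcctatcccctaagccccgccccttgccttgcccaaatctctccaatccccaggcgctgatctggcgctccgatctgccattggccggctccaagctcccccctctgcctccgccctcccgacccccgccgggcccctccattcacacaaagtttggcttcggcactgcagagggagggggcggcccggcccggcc
The core stands at position -62 of Ntsr2 and -96 of Slc1a3, counted from the start site, and is not in the windows of Etnppl and Kcnj10. Among the windows not printed, the second of 2 for Aldoc holds it at -124 and -83, and those of Glul, Gja1 and Gjb6 do not hold it. This second Aldoc window begins its transcript 1125 bases inside the gene, and the first, at the outer start of the gene, does not hold the core. The window listed for Slc1a2, in which none of the motifs was found, begins its transcript 48199 bases inside the gene, so it does not cover the outer start of the gene. The STAT core is found in 8.3% of the 32851 mouse promoter windows of this table. Of the other motifs searched on both strands, the core of the interferon-stimulated response element, GAAANNGAAA, was in 3.44% of all windows and, among these genes, only in that of Glul. The NFI palindrome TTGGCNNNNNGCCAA and the glucocorticoid response element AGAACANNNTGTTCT were in 0.0365% and 0.00913% of all windows and in none of those read for these genes. A match is a run of letters and not a measured site.

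Genes of glutamate uptake and glutamine synthesis fell, Slc1a2 more than the others. Slc1a2 encodes the transporter that clears most of the glutamate in the forebrain. Its log2 values were 12.14, 12.15, 12.21, 12.23 and 12.08 in Aldara-treated brains, against 12.72, 12.71, 12.68, 12.80 and 12.77 in control brains. The highest Aldara-treated brain stood 0.447 below the lowest control brain, and the spread within each group was small, at 12.16 ± 0.058 in Aldara-treated brains and 12.74 ± 0.051 in control brains (SD, n = 5 each). The log2 difference was -0.57 (standard error 0.036, adjusted p = 2.1e-07 from limma), so that expression fell by 32.8% (95% interval -36.4% to -29.1%).
Slc1a3 encodes the related glutamate transporter of Bergmann glia and other astrocytes. It had log2 values of 11.59, 11.62, 11.65, 11.69 and 11.66 in Aldara-treated brains, against 11.87, 11.86, 11.88, 11.88 and 11.97 in control brains. No values overlapped, and control replicate 5 stood apart as the highest brain. The log2 difference was -0.25 (standard error 0.031, adjusted p = 7.6e-05 from limma), so that expression fell by 15.8% (95% interval -19.6% to -11.8%).
Glul encodes glutamine synthetase, which joins ammonia to the glutamate taken up. The row with the higher mean had log2 values of 12.40, 12.41, 12.41, 12.48 and 12.37 in Aldara-treated brains, against 12.63, 12.66, 12.66, 12.68 and 12.73 in control brains. The other row had values of 12.24, 12.26, 12.20, 12.31 and 12.20 in Aldara-treated brains, against 12.45, 12.49, 12.45, 12.44 and 12.52 in control brains. Neither row had overlapping groups, and the rows fell by similar amounts, with log2 differences of -0.26 and -0.23, each with a standard error of 0.030. Their adjusted p was 5.1e-05 and 1.1e-04 from limma.
Differences between 2 genes were taken in each brain and then compared between the groups. On the log2 scale, Slc1a2 minus Slc1a3 differed by -0.33 between Aldara-treated and control brains (95% interval -0.40 to -0.25). Slc1a2 minus Glul differed by -0.32 (95% interval -0.37 to -0.26). Glul and Slc1a3 differed from each other in their change by -0.01, with an interval of -0.05 to 0.04.

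Among the other genes of glutamate, glutamine and GABA handling, 9 of 20 measured were called lower and 4 higher, with a median difference of -0.11. These shares were 45% and 20%, against 22.4% and 11.8% among all 19938 genes. The lower genes with the largest changes all belong to GABA clearance. Slc6a11, the GABA transporter of astrocytes, had a log2 difference of -0.55 (standard error 0.037, adjusted p = 3.6e-07 from limma), with values of 11.23 to 11.39 in Aldara-treated brains and 11.85 to 11.97 in control brains. Aldh5a1 and Abat, the mitochondrial enzymes that break down GABA, had differences of -0.45 (standard error 0.039) and -0.31 (standard error 0.029). The largest increase was that of Slc7a11, which exports glutamate in exchange for cystine, at 0.65 (standard error 0.071), followed by Slc38a5, a glutamine transporter, at 0.26 (standard error 0.066) and Slc1a5, a carrier of neutral amino acids, at 0.25 (standard error 0.041). Slc1a1, the transporter of the same family that neurons carry, had a difference of -0.15 and was called lower. Slc38a3, which exports glutamine from astrocytes, had one of 0.10 (adjusted p = 0.052 from limma). The balance of the list depended on the scaling of the arrays. When every array was shifted to a common mean of neuron markers, 3 were lower and 9 higher (712 and 10306 of all 23410 probesets).

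Etnppl and Aldoc, enzymes of lipid and sugar metabolism, both fell, Etnppl more than Aldoc. Etnppl encodes ethanolamine-phosphate phospho-lyase, which breaks down an intermediate of phospholipid synthesis. Its log2 values were 8.46, 8.35, 8.50, 8.71 and 8.60 in Aldara-treated brains, against 9.17, 9.13, 9.06, 9.20 and 9.38 in control brains. The groups did not overlap, although Etnppl varied more between brains of 1 group than most of the other genes, at 8.53 ± 0.14 in Aldara-treated brains and 9.19 ± 0.12 in control brains (SD, n = 5 each). The log2 difference was -0.66 (standard error 0.070, adjusted p = 2.1e-05 from limma), so that expression fell by 36.8% (95% interval -43.2% to -29.7%). Of 11 other measured genes of this pathway, 3 were called lower and 3 higher (27.3% each), against 22.4% lower and 11.8% higher among all 19938 genes. Without control replicate 3, Aldara replicate 2 or Aldara replicate 3, 1 was lower. After the shift to neuron markers 1 was lower and 5 were higher (712 and 10306 of all 23410 probesets). With the values as deposited, the lower genes were led by Pcyt2, the rate-limiting enzyme of phosphatidylethanolamine synthesis, at -0.23 (standard error 0.034). The higher genes were led by Sgpl1, which yields ethanolamine phosphate from sphingolipids, at 0.53 (standard error 0.036).
Aldoc encodes the brain form of the glycolytic enzyme aldolase, found in astrocytes and Purkinje cells. It had log2 values of 12.93, 12.91, 12.82, 12.97 and 12.89 in Aldara-treated brains, against 13.14, 13.06, 13.05, 13.10 and 13.11 in control brains. The gap between the groups was 0.0748, and the log2 difference was -0.19 (standard error 0.033, adjusted p = 0.0010 from limma). Aldoa, the aldolase of most cells, had a difference of -0.06 (adjusted p = 0.10 from limma). Of 19 other genes of glycolysis, glycogen and lactate transport, 6 (31.6%) were called lower and 3 (15.8%) higher, against 22.4% and 11.8% among all genes. The direction of this list was not stable to scaling. After the shift to neuron markers 3 were lower and 10 higher (712 and 10306 of all 23410 probesets). With the values as deposited, the increases were all in membrane carriers. Slc2a1, the glucose transporter of the blood-brain barrier and of astrocytes, rose by 0.48 (standard error 0.044), and the lactate carriers Slc16a1 and Slc16a3 by 0.43 (standard error 0.048) and 0.26 (standard error 0.048) on the log2 scale. The largest decreases were those of Pygm, a glycogen phosphorylase of astrocytes, at -0.28, and Pfkm and Eno2, which neurons express, at -0.21 each.

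**Figure D2:**
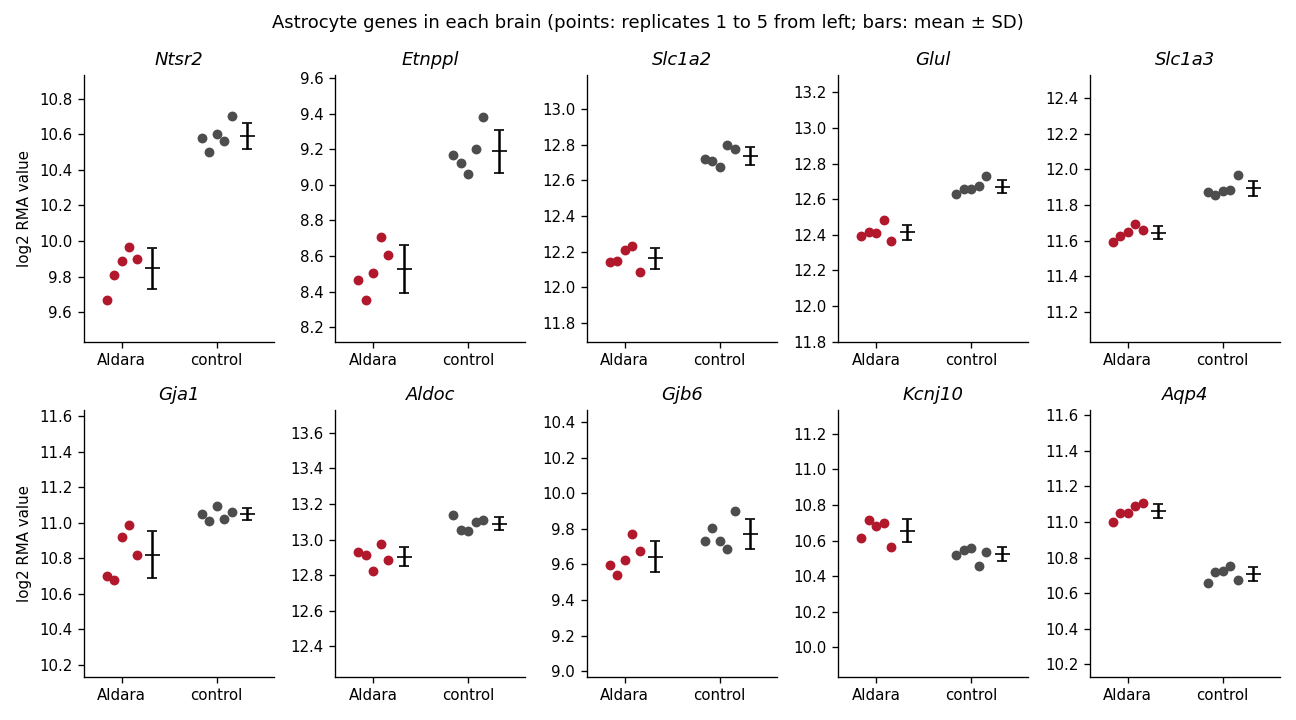
Log2 RMA values (y axis, 1.5 log2 units in every panel) of the 10 astrocyte genes in 5 Aldara-treated brains (red points, left) and 5 control brains (grey points, right), with replicates 1 to 5 from left to right. Black bars give the mean and SD of each group. The groups are apart in every panel but that of Gjb6, and the red points lie above the grey ones only for Kcnj10 and Aqp4.

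Of the gap junction genes, Gja1 fell and Gjb6 did not pass the test. Gja1 and Gjb6 encode the main connexins that couple astrocytes to each other. Gja1 had log2 values of 10.70, 10.68, 10.92, 10.98 and 10.82 in Aldara-treated brains, against 11.05, 11.01, 11.09, 11.02 and 11.06 in control brains. The groups were 0.0225 apart, and the Aldara-treated brains were more spread, at 10.82 ± 0.13 against 11.05 ± 0.034 in control brains (SD, n = 5 each). The log2 difference was -0.23 (standard error 0.055, adjusted p = 0.0077 from limma). Gjb6 had values of 9.60, 9.54, 9.63, 9.77 and 9.67 in Aldara-treated brains, against 9.73, 9.81, 9.73, 9.69 and 9.90 in control brains. Here the groups overlapped, since Aldara replicate 4 lay above 3 control brains, and the log2 difference of -0.13 (standard error 0.050) did not pass (adjusted p = 0.064 from limma). It did pass without Aldara replicate 4 (-0.16, adjusted p = 0.024) or without control replicate 4 (-0.15, adjusted p = 0.049). The changes of Gja1 and Gjb6 differed by -0.10, with a 95% interval of -0.22 to 0.02.
Of 17 other measured genes of connexins, pannexins and their scaffold, 5 (29.4%) were called lower and 3 (17.6%) higher, with a median of -0.05. Among all 19938 genes the shares were 22.4% and 11.8%, and the median was -0.05. Gjb2, a connexin of leptomeningeal cells and some astrocytes, had a log2 difference of 0.23 (standard error 0.070), with values of 8.28 to 8.53 in Aldara-treated brains and 7.99 to 8.38 in control brains, so that the groups overlapped. Tjp1, the scaffold that binds connexins and tight junction proteins, rose by 0.22 (standard error 0.028). Panx2 and Gjc3, a neuronal pannexin and a connexin of myelinating glia, had differences of -0.24 (standard error 0.041) and -0.21 (standard error 0.051). The number of lower genes in this list was 3 without control replicate 3, control replicate 4 or Aldara replicate 3. That of higher genes was 1 without Aldara replicate 4 or Aldara replicate 5. After the shift to neuron markers 1 was lower and 7 were higher (712 and 10306 of all 23410 probesets).

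Aqp4 and Kcnj10 rose in the brains of Aldara-treated mice while the transporters fell. Aqp4 encodes the water channel of astrocyte endfeet. Its log2 values were 11.00, 11.05, 11.05, 11.09 and 11.11 in Aldara-treated brains, against 10.66, 10.72, 10.72, 10.75 and 10.67 in control brains. The lowest Aldara-treated brain stood 0.250 above the highest control brain. The mean was 11.06 ± 0.040 in Aldara-treated brains and 10.71 ± 0.039 in control brains (SD, n = 5 each), a log2 difference of 0.36 (standard error 0.030, adjusted p = 3.0e-06 from limma), or an increase of 27.9% (95% interval 22.2% to 33.9%).
Kcnj10 encodes the inward-rectifying channel through which astrocytes take up potassium. It had log2 values of 10.61, 10.72, 10.68, 10.70 and 10.56 in Aldara-treated brains, against 10.52, 10.55, 10.56, 10.46 and 10.53 in control brains. The groups came within 0.0062 of each other at Aldara replicate 5. The log2 difference was 0.13 (standard error 0.035, adjusted p = 0.013 from limma), and once each array had been centred on its median it was 0.08 and no longer called (adjusted p = 0.090 from limma). Kcnj10 rose less than Aqp4, with a difference of -0.22 between their log2 changes (95% interval -0.33 to -0.12).
Of 21 other measured genes of potassium, water and the endfoot complex, 10 were called lower and none higher at an adjusted p under 0.05 from limma, with a median of -0.12. The share called lower was 47.6%, against 22.4% among all 19938 genes, of which 11.8% were called higher. At an unadjusted p under 0.05, 1 gene was higher, and the methods' t-test called 0 higher after adjustment. Quantile normalisation gave 1 higher, and setting the median difference of all probesets to 0 gave 2. Apart from leaving out arrays, 6 alternative settings moved the number of higher genes from 0. After adjustment with limma, 1 was higher without Aldara replicate 1, Aldara replicate 2 or control replicate 5. Mlc1, which regulates astrocyte volume at the endfeet, had the largest decrease, at -0.33 (standard error 0.044), with values of 10.02 to 10.29 in Aldara-treated brains and 10.46 to 10.50 in control brains. It was followed by the potassium channels Kcnk2, at -0.22 (standard error 0.027), and Kcnk1, at -0.17 (standard error 0.033). Kcnj16, whose product forms channels together with that of Kcnj10, had a difference of -0.08 (adjusted p = 0.20 from limma). After the shift to neuron markers 2 genes of this list were lower and 8 higher (712 and 10306 of all 23410 probesets). The direction of the list thus depended on the scaling.

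The changes of the 10 genes were compared within each brain for all 45 pairs with an exact two-sided permutation test over the 10 brains, whose smallest possible p is 0.0079, and 35 pairs passed after Benjamini-Hochberg adjustment over the pairs. In the order of their change, the first neighbours, Ntsr2 and Etnppl, did not differ beyond their spread (difference -0.08, 95% interval -0.22 to 0.05), nor did Etnppl and Slc1a2 (-0.09, interval -0.25 to 0.08). Ntsr2 fell more than Slc1a2, by a difference of -0.17 (interval -0.30 to -0.04, adjusted exact p = 0.031). Slc1a2 and the next gene, Glul, differed by -0.32 on the log2 scale (adjusted exact p = 0.011). From Glul through Slc1a3, Gja1 and Aldoc to Gjb6, no pair of neighbours passed, and their differences ran between -0.01 and -0.06. Across this range Glul and Gjb6 differed by -0.13 and Slc1a3 and Gjb6 by -0.12 (adjusted exact p = 0.031 each). The differences of -0.26 between Gjb6 and Kcnj10 and of -0.22 between Kcnj10 and Aqp4 passed (adjusted exact p = 0.011 each). At the ends of the order, Ntsr2 and Aqp4 were 1.10 log2 units apart in their change (first minus last, -1.10). Such differences within a brain are not altered by adding a constant to all values of an array, as 3 of the 4 other scalings did, but can be altered by quantile normalisation.

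The decreases were shared by all Aldara-treated brains but varied in size. The mean of the 10 genes, relative to that of the control brains, was -0.311, -0.297, -0.245, -0.162 and -0.255 log2 units in Aldara replicates 1 to 5. The same mean lay between -0.0231 and 0.0624 in control brains. Aldara replicate 4 stood nearest to the controls and had the highest value of its group for 8 of the 10 genes. Aldara replicates 1, 2 and 5 had the lowest value for 3 genes each. The mean of 14 genes induced by interferon had another order, with increases of 2.46, 2.21, 2.61, 2.25 and 3.40 log2 units in Aldara replicates 1 to 5. Aldara replicate 5, with the highest interferon mean, had the lowest values of its group for Slc1a2, Glul and Kcnj10 and the highest for Aqp4, and a relation between these values was not tested.

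**Figure D3:**
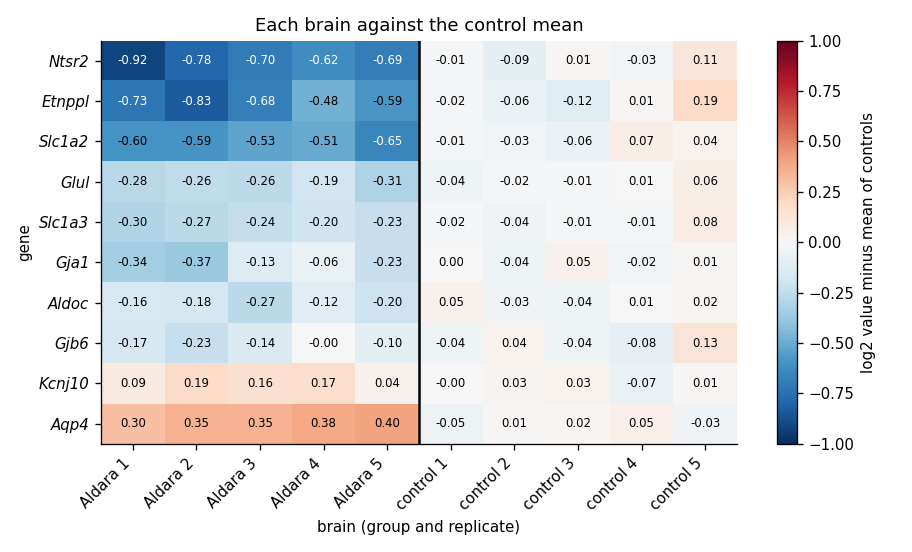
Log2 value of each of the 10 astrocyte genes (rows) in each brain (columns, 5 Aldara-treated on the left and 5 control on the right) minus the mean of the 5 control brains. Blue is below and red above the control mean, on a scale from -1 to 1. Ntsr2, Etnppl and Slc1a2 are the darkest rows, Aldara replicate 4 is the palest of the Aldara columns for most of the falling genes, and the Aqp4 row is red in all 5 Aldara columns.

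Other astrocyte genes fell as well, whereas genes of reactive astrocytes rose. Of 37 further measured genes of resting astrocytes, 23 were called lower and 1 higher, with a median difference of -0.17, against 22.4% lower and 11.8% higher among all 19938 genes. Gpc5, a proteoglycan, had the largest decrease, at -0.60 (standard error 0.041), followed by Cyp4f15, a cytochrome, at -0.58 (standard error 0.070) and Cldn10, a claudin, at -0.56 (standard error 0.053). S100b, a calcium-binding protein of astrocytes, had a difference of -0.43 (standard error 0.047). Not all genes that define the cell type fell. Sox9, a transcription factor of astrocytes, had a difference of 0.06 (adjusted p = 0.15 from limma). Aldh1l1, a folate enzyme used to mark all astrocytes, was the gene that rose, at 0.36 (standard error 0.074), with values of 9.53, 9.51, 9.65, 9.69 and 9.95 in Aldara-treated brains and 9.37, 9.19, 9.29, 9.32 and 9.38 in control brains. Without Aldara replicate 2 or Aldara replicate 5, 2 genes of this list were higher. After the shift to neuron markers 11 were lower and 11 higher (712 and 10306 of all 23410 probesets).
Of 25 measured genes of reactive astrocytes, 19 were called higher and 1 lower, Amigo2, a call that was lost without control replicate 5 or Aldara replicate 4. The median difference was 0.64. For Gfap, the intermediate filament that marks reactive astrocytes, the Aldara-treated brains lay at 11.04 to 11.16 and the control brains at 9.26 to 9.44, a log2 difference of 1.73 (standard error 0.040). Serpina3n, a protease inhibitor, had one of 2.69 (standard error 0.060) and Lcn2, a lipocalin, one of 2.13 (standard error 0.065). Vim, at 1.48, Psmb8, at 2.07, and several others of this list are also made by macrophages or endothelial cells, whose markers rose in these brains.

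**Figure D4:**
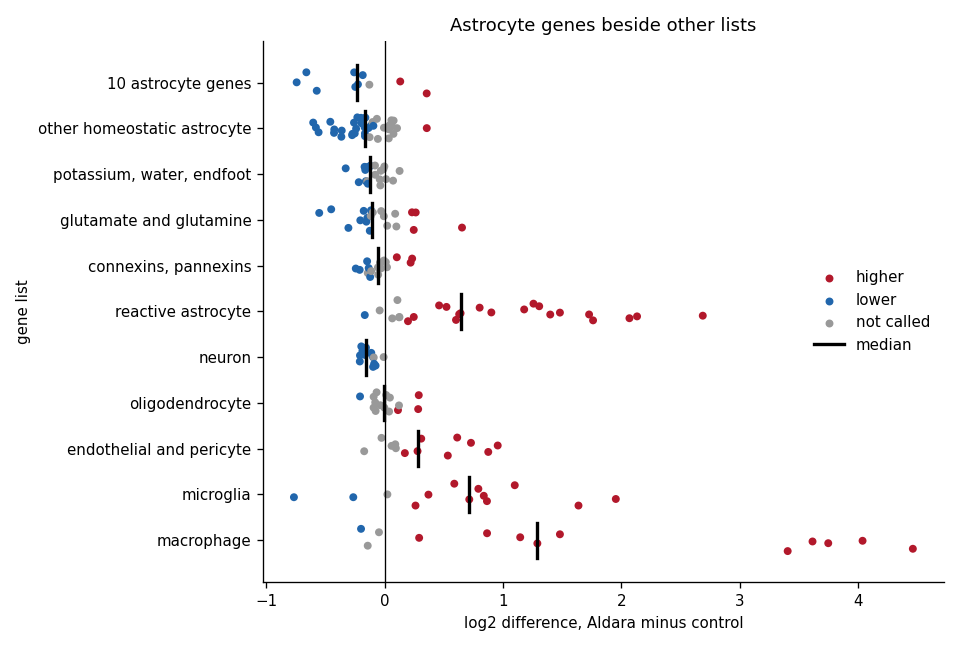
Log2 difference, Aldara-treated minus control brains (x axis), of every measured gene of 11 lists (y axis), with 1 point per gene and its height within a list set at random. Red points were called higher, blue lower and grey not called, and black bars are medians. The 10 astrocyte genes reach from -0.74 to 0.36 with a median of -0.24, and the medians of the reactive astrocyte and neuron lists are 0.64 and -0.16.

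Markers of other cell types moved between the groups, and their part in the decreases was not tested. Among all 19938 genes, 22.4% were called lower and 11.8% higher. Of 13 measured macrophage markers, 10 were called higher and 1 lower, Cd163, with list means of 8.47 to 8.71 in Aldara-treated brains and 6.70 to 6.79 in control brains, and without Aldara replicate 4 the lower ones were 2. For microglia 10 of 13 were higher and 2 lower, Siglech and Gpr34, with list means of 8.99 to 9.26 in Aldara-treated brains and 8.46 to 8.59 in control brains. For endothelial cells and pericytes 8 of 13 were higher, with list means of 9.47 to 9.61 against 9.13 to 9.25 in control brains, and 1 was lower without Aldara replicate 4. Neuron markers moved down by smaller amounts than Ntsr2, Etnppl and Slc1a2. Of 15, 13 were called lower, with a lowest difference of -0.21 and a median of -0.16. The list means were 11.83 to 11.85 in Aldara-treated brains against 11.95 to 11.99 in control brains. Other astrocyte genes fell by amounts nearer to these, with Glul, Slc1a3, Gja1 and Aldoc at -0.26, -0.25, -0.23 and -0.19. The 37 further genes of resting astrocytes had a median of -0.17. With the values as deposited, the share called lower was 86.7% for neuron markers, 70% for the 10 genes and 62.2% for those 37. These shares depended on the scaling. With Aldara arrays shifted to remove the overall median difference, 8 of 15 neuron markers and 20 of those 37 were lower. Across the array 2760 of 23410 probesets were then lower. With centred arrays the counts were 14 and 26, and 9606 probesets were lower. After the shift to neuron markers they were 2 and 11, and 712 probesets were lower. Of 15 oligodendrocyte markers, 1 was lower, Mbp, and 3 higher, Cldn11, Ermn and Mag, with a median of 0.00, and 2 or 3 were lower without Aldara replicate 1 or control replicate 3. The oligodendrocyte calls depended on the scaling, with 4 lower and 2 higher with centred arrays (9606 of all 23410 probesets lower). After the shift to neuron markers 0 were lower and 9 higher (712 and 10306 of all 23410 probesets). Of 10 markers of choroid plexus and ependyma, 4 were lower and 1 higher, with list means of 8.12 to 8.23 in Aldara-treated brains and 8.25 to 8.35 in control brains, and Ttr, which choroid plexus secretes, had a log2 difference of -0.82 (standard error 0.057). After the shift to neuron markers 3 of these were lower and 4 higher (712 and 10306 of all 23410 probesets).
Every array was also shifted so that the mean of the neuron list was equal, a setting chosen after seeing the data. It moved the median difference of all probesets from -0.04 to 0.10, with 712 of 23410 called lower and 10306 higher. Of the 10 astrocyte genes, 5 were still lower and 2 higher. Ntsr2 then had a log2 difference of -0.61, Etnppl -0.53, Slc1a2 -0.44, Glul -0.12 and Slc1a3 -0.11, all called. Gja1, at -0.09, and Aldoc, at -0.05, were no longer called, and Gjb6 stood at 0.01. Aqp4 and Kcnj10 were higher by 0.49 and 0.27.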

How the data were processed

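RNA from 10 perfused whole brains, 5 per group, was measured on Affymetrix mouse gene arrays. The authors deposited log2 values made with RMA in GeneSpring GX. The version of GeneSpring GX is not given in the sources used here. The deposited values spanned 4.73 to 14.56. The scanner values were not used here, and the RMA step was not repeated. Symbols were those of the array platform and may be dated. Of 28856 probesets, 21789 had 1 symbol, 1621 several and 5446 none listed, and no gene was named from a shared probeset. A gene with several probesets was represented by the one with the highest mean. The test was limma 3.58.1 under R 4.3.3, with lmFit and eBayes, over the 23410 probesets with a symbol, with Benjamini-Hochberg adjustment. In data simulated with the spreads of these arrays for the comparison of Aldara with control brains, the test recovered 76% of changes of 1.2-fold and 100% of 1.5-fold, with 10 false calls among 186. The simulation changed 200 of 23410 probesets, with independent noise and no shift in scaling between arrays. In the data 33.4% of probesets were called and the counts depended on the scaling, so these rates need not hold for them. The number of arrays limits the precision.

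Groups and replicate numbers were taken from the sample titles. The members and lists were chosen with earlier results of these data known. Named genes were the 10 members, the 3 largest called decreases and increases of each other list, and listed partners of the members. Some genes of the lists were not analysed here. Alternatives were 4 scalings of the arrays (1 of them, the shift to a common mean of neuron markers, chosen after seeing the data), 3 sets of probesets, a robust prior with an intensity trend, array weights, the methods' t-test, a block for the replicate number, averaged rows per gene, unlogged means and leaving out each array. RefSeq windows around a transcript start were read for 9 of the 10 members. That of Slc1a2 and the second of Aldoc began their transcripts 48199 and 1125 bases inside the gene.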

Additional observations from a re-analysis of the deposited data

Results flagged for a closer look

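For Slc1a3, control replicate 5 lay apart from the other control brains, with a log2 value of 11.97 against 11.88 for the nearest of them, a gap of 0.785 of the whole range of the group. It was the 1 value marked among 22 groups of 5 brains that were checked over the 11 rows of the astrocyte genes, where chance marks about 5% of groups. Leaving out any 1 brain gave Slc1a3 a log2 difference of -0.26 to -0.23, which was called each time.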

How the results depend on the processing

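Over 12 alternative settings and 10 arrays left out in turn, the 10 genes gave 220 values. Of these, 219 kept their direction and 210 kept both their direction and their side of the threshold. The exceptions were Gjb6, Kcnj10, Aldoc and Gja1. The count of 219 overstates how far direction was tested, since some settings could not change it. The sets of probesets, the intensity trend, the methods' t-test and the replicate block left the difference of each gene as it was. They could alter only its adjusted p. Averaging the rows of a gene could alter the difference of Glul alone. Gjb6 was called with centred arrays (-0.18), quantile normalisation (-0.13), the brighter probesets (-0.13), the intensity trend (-0.13), and without control replicate 4 or Aldara replicate 4, and it stood at 0.0072 after the shift to neuron markers. Kcnj10 lost its call with centred arrays, which left 1 member higher, and Aldoc and Gja1 lost theirs after the shift to neuron markers. The scaling set how many probesets were called lower, with 4926 as deposited, 9606 with centred arrays, 2760 with the median difference set to 0 and 712 after the shift to neuron markers, where 10306 were called higher in place of 2901. The median of the 10 genes was -0.10 after that shift. Leaving out 1 array gave medians of -0.26 to -0.22, 7 to 8 members lower, 2 higher, 4119 to 4772 probesets lower and 2653 to 2926 higher. The methods' t-test with Benjamini-Hochberg adjustment called 4484 probesets lower and 2750 higher, and unlogged means gave a median of the 10 genes of -0.23. The replicate numbers were not treated as pairs, since same-numbered brains correlated above 0.1 in 2 of 5 pairs (-0.11 to 0.25) and 2 of 5 Aldara-treated brains correlated best with their own number. With the replicate block 4421 probesets were lower and 2701 higher, with 7 members lower, 2 higher and a median of -0.24, and Gjb6 had an adjusted p of 0.0905 from limma. No call of a member changed with the block.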
